A study of Mus musculus with 2 samples.

Results

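The 9 genes described here are the receptors *S1pr1* and *S1pr4*, the Krüppel-like factors *Klf2*, *Klf3*, *Klf6* and *Klf13*, the forkhead factors *Foxo1* and *Foxo3*, and *Cd69*. They were chosen by symbol as genes of the axis that lets mature thymocytes leave the thymus, and all 9 were found among the 48321 gene symbols listed in both libraries. The series holds RNA-seq of mature thymocytes from *MHC-II0:CD8ab Tg* mice on a C57Bl/6 background, with 2 replicate libraries of this 1 group. These mice lack the MHC class II gene *I-Ab* (*I-Ab-/-*), carry CD8α and CD8β cDNAs in the *Rosa26* locus (*Rosa26 8a/8b*) that are switched on by the *Cd4-Cre* transgene, and have both endogenous *Cd8* genes disrupted (*Cd8 Δab/Δab*). The endogenous loci were disrupted by replacing an exon of *Cd8a* with a human CD2 cDNA and deleting an exon of *Cd8b1*. CD8 therefore comes from *Rosa26*, in every cell in which the Cre was active. The age of the mice is not given, nor is it stated whether the replicates came from separate or pooled mice. The p-values below therefore compare these libraries only, and those of the main test cover counting error and not variation between mice. The sample titles call the cells CD4-CD8-, while the cell type field calls them CD8+, and according to the methods CD4- mature thymocytes were sorted. No other genotype is compared here, so no level below can be called raised or lowered by the transgene.

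Sphingosine 1-phosphate (S1P) is a lipid that is abundant in blood and lymph and kept low in tissue, and S1PR1 is the G protein-coupled receptor through which mature thymocytes follow this gradient out of the thymus. FOXO1 activates *Klf2*, and KLF2 in turn activates *S1pr1* and other homing genes of naive T cells. CD69, which is induced after T cell receptor signalling, binds S1PR1 and draws it off the cell surface, so cells that still carry CD69 protein are retained. Protein and surface levels were not measured in these libraries.

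The library totals on genes were 16732644 counts in replicate 1 and 16245849 in replicate 2, and the 9 egress genes took 30619 and 27560 of them. At this depth 1 count was worth 0.0598 and 0.0616 CPM (counts scaled to a library total of 1e+06), and a gene at 0 could have a level of up to 0.179 or 0.185 CPM (3 counts). The targeted genes were *H2-Ab1*, with 23.6 and 18.0 CPM, *Cd8a*, with 158 and 171 CPM, and *Cd8b1*, with 775 and 786 CPM. Counts on the *Cd8* genes cannot be assigned to the transgene or to the remaining endogenous exons, and reads on *H2-Ab1* do not show which part of the gene was removed. *Cd4* was at 0.717 and 1.66 CPM. The replicates differed in genes of the sex chromosomes, with 34 and 25266 counts on *Xist* and 2450 and 0 counts on *Ddx3y*. Any other difference between the libraries cannot be told apart from that one.

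All 9 egress genes were well above the level that the depth can show, between 76.4 and 347 CPM on average. CPM grows with the length of a transcript, so levels of different genes are compared per kb of exon further on. *S1pr1* had the widest spread over the replicates, with an SD of 64.1 CPM, and the SD of the other 8 genes was at most 11.7 CPM.

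**Figure D1:**
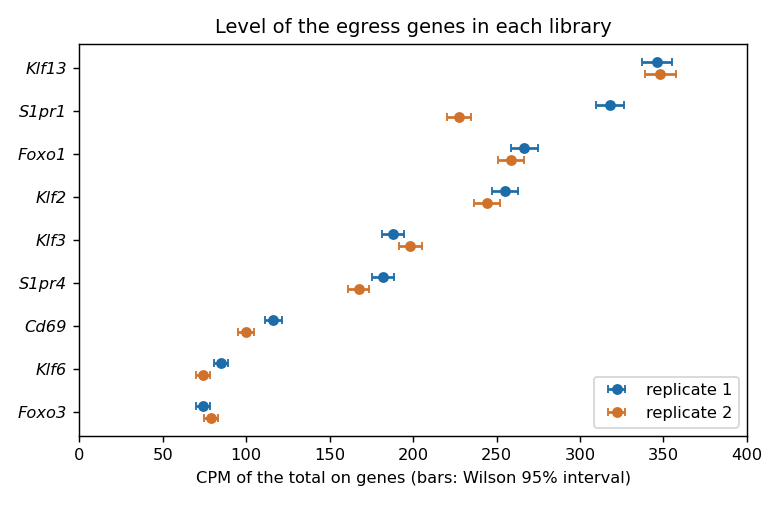
Level of the 9 egress genes in each of the 2 libraries, in CPM of the total on genes (horizontal axis, from 0), with bars for the Wilson 95% interval, which covers counting error only. The distance between the libraries is widest for *S1pr1*, with 318 CPM in replicate 1 against 227 in the other.

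FOXO1 and FOXO3 are forkhead transcription factors that AKT keeps out of the nucleus, and FOXO1 is a main activator of *Klf2* and *Il7r* in T cells. *Foxo1* (chromosome 3, 52268336 to 52353221, plus strand; all coordinates are those of GENCODE M21 on GRCm38) had 4461 counts in replicate 1 and 4200 in replicate 2, or 267 and 259 CPM (263 ± 5.71, SD, n = 2). *Foxo3* (chromosome 10, 42181841 to 42276755, minus strand) had 1240 and 1280 counts, or 74.1 and 78.8 CPM (76.4 ± 3.31, SD, n = 2). The libraries thus gave nearly the same value for either gene. Of the other FoxO genes, *Foxo4* was at 35.6 and 34.8 CPM and *Foxo6* had 0 counts in both libraries, so 3 of the 4 FoxO genes reached 1 CPM. Per kb of exon *Foxo4* (10.1 ± 0.158 CPM per kb, SD, n = 2) was at the level of *Foxo3* (10.1 ± 0.437), and *Foxo1* was above both (30.3 ± 0.659). Part of the exons of *Foxo1* (674 bases) lies opposite *Gm20402*, and 404 bases of *Klf3* lie opposite *Gm20033*. Because the strand setting of the counting is not given in the sources used here, reads from the opposite strand may be included there or set aside as ambiguous.

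KLF2 is the factor that keeps T cells quiescent and activates *S1pr1*, KLF3 is a repressor of the same family that binds similar letters, KLF6 is a broadly expressed activator, and KLF13 is known in T cells for activating *Ccl5*. *Klf2* (chromosome 8, 72319033 to 72321656, plus strand) had 4266 and 3968 counts, or 255 and 244 CPM (250 ± 7.57, SD, n = 2). *Klf3* (chromosome 5, 64803388 to 64832901, plus strand) had 3140 and 3218 counts, or 188 and 198 CPM (193 ± 7.37, SD, n = 2). *Klf13* (chromosome 7, 63886351 to 63938915, minus strand) had 5790 and 5657 counts, or 346 and 348 CPM (347 ± 1.54, SD, n = 2), the smallest spread of the 9 egress genes. These 3 genes were at like levels in both libraries. *Klf6* (chromosome 13, 5861482 to 5870394, plus strand) had 1418 and 1206 counts, or 84.7 and 74.2 CPM (79.5 ± 7.43, SD, n = 2), with replicate 1 the higher library.

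Of the 17 genes of the KLF family, 11 had at least 1 CPM in both libraries. Per kb of exon the highest after the 4 named above were *Klf16*, at 10.8 ± 0.450 CPM per kb, *Klf10*, at 6.36 ± 0.0931, and *Klf7*, at 5.40 ± 0.0759 (SD, n = 2). *Klf9*, *Klf11*, *Klf8* and *Klf12* were all under 10 CPM in both libraries. *Klf5*, *Klf14*, *Klf15* and *Klf17* had 0 counts, *Klf1*, the erythroid factor, had 0 and 2, and *Klf4*, a factor of quiescence in CD8 T cells, had only 8 and 5. *Klf2*, *Klf13*, *Klf6* and *Klf3* were thus the highest genes of the family per kb.

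KLF factors bind CACCC letters, and the promoters of the egress genes are shown for where these letters stand. RefSeq promoters on GRCm38.p6, from 250 bases before the start to 50 after it, were available for 7 of the 9 genes, all but *S1pr1* and *Cd69*. CACCC on either strand occurred in 4 of the 7, namely *Klf2*, *Klf3*, *Klf13* and *S1pr4*, beside 57.5% of all 32851 promoters, so its presence alone does not set these genes apart. *Klf3* held it at 5 places, and 1.02% of all promoters held it at 5 or more. The FOXO letters TGTTTAC and TGTTTTC on either strand were in 0 of the 7, beside 3.65% and 7.35% of all promoters. The promoter stretches of the 4 genes with a match read as follows, 5′ to 3′ on the strand of the gene, with CACCC or its reverse complement GGGTG in capitals, at chr8:72318812-72319061 (plus strand), chr5:64803271-64803520 (plus strand), chr7:63938916-63938965 (minus strand) and chr10:81500212-81500272 (minus strand).
Klf2: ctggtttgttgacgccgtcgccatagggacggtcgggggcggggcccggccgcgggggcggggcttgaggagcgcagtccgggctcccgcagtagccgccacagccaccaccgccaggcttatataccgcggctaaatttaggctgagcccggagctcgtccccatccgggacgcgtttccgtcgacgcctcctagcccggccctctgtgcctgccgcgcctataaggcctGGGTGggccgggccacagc
Klf3: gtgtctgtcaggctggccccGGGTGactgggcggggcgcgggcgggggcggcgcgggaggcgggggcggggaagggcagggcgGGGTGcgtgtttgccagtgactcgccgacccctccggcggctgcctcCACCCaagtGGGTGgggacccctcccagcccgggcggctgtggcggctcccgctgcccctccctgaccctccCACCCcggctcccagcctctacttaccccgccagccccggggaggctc
Klf13: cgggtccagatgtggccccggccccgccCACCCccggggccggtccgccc
S1pr4: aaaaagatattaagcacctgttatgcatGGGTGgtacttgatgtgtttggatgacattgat
The *Klf2*, *Klf3* and *Klf13* stretches end at the base before the RefSeq start, and the *S1pr4* stretch runs from 135 to 75 bases before it. In *Klf2* the first base of the match lies 19 bases before the RefSeq start, in *Klf13* 22 bases and in *S1pr4* 107 bases before it. The *Klf2* and *Klf3* stretches run past the GENCODE M21 gene starts, which are 72319033 and 64803388. The *Klf2* match and part of the *Klf3* places therefore lie inside the genes as annotated there. These matches are letters only, and no binding was measured.

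S1PR1 is the receptor that carries mature thymocytes out, and S1PR4 is a related receptor of lymphocytes. *S1pr1* (chromosome 3, 115710433 to 115715072, minus strand) had 5321 counts in replicate 1 and 3694 in replicate 2, or 318 and 227 CPM (273 ± 64.1, SD, n = 2). *S1pr4* (chromosome 10, 81497747 to 81500132, minus strand) had 3041 and 2720 counts, or 182 and 167 CPM (175 ± 10.1, SD, n = 2). Replicate 1 was higher for both receptors, and by more for *S1pr1*. Of the 5 S1P receptor genes, 3 reached 1 CPM, the other being *S1pr2*, whose product signals through G12/13 proteins to hold cells in place, with 134 counts in each library (8.13 ± 0.170 CPM, SD, n = 2). *S1pr5*, the egress receptor of NK cells, had 7 and 13 counts, and *S1pr3* had 0 in both libraries.

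**Figure D2:**
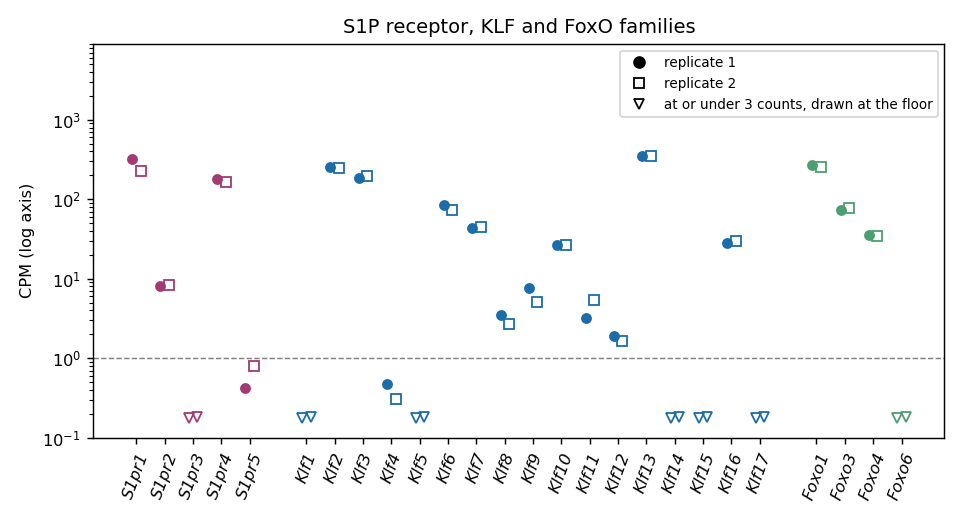
Levels of all S1P receptor, KLF and FoxO genes in replicate 1 (filled circles) and replicate 2 (open squares), in CPM on a log axis, where triangles mark genes with at most 3 counts, drawn at the level of 3 counts. The dashed line is at 1 CPM, above which lie 3 S1P receptor, 11 KLF and 3 FoxO genes.

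CD69 opposes S1PR1 at the cell surface. *Cd69* (chromosome 6, 129267325 to 129275436, minus strand) had 1942 counts in replicate 1 and 1617 in replicate 2, or 116 and 99.5 CPM (108 ± 11.7, SD, n = 2). It was thus readily detected, with replicate 1 the higher library. In the list of 6 retention and thymic homing genes the highest per length were *Cxcr4*, the receptor for the stromal chemokine CXCL12, with 178 and 171 CPM, then *Cd69*, then *Ccr9*, the receptor for CCL25, with 87.4 and 105 CPM, and *Ccr4*, with 9.26 and 7.02 CPM. *Cd24a*, which encodes the protein whose loss defines the mature gate, had 51 and 28 counts, or 3.05 and 1.72 CPM. Of the other genes of immature or semi-mature thymocytes, *Cd1d1* had 426 and 360 counts and *Sox4* had 669 and 679. Those of earlier stages were mixed, with 224 and 211 counts on *Dntt*, which encodes terminal transferase, 8 and 19 on *Rag1*, 4 and 1 on *Rag2* and 2 on *Ptcra* in each library.

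Counts were divided by the length of the merged annotated exons to compare the genes with each other. *Klf2* was then the highest egress gene, at 138 and 132 CPM per kb (135 ± 4.10, SD, n = 2), above 98.0% of the genes detected at 1 CPM or more in both libraries. *S1pr1* followed with 104 and 74.6 CPM per kb and *S1pr4* with 76.2 and 70.2, and the values of these receptors overlapped over the replicates. *Klf13*, at 46.1 ± 0.205, and *Foxo1*, at 30.3 ± 0.659 CPM per kb (SD, n = 2), came next and overlapped with no neighbour. *Klf6*, at 18.1 ± 1.69, *Klf3*, at 17.2 ± 0.656, and *Cd69*, at 16.6 ± 1.80 CPM per kb (SD, n = 2), did not differ beyond their spread. *Foxo3* was the lowest, at 10.1 ± 0.437 CPM per kb, above 63.0% of detected genes.

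The order of the lower genes depended on the length used. *Cd69* has 6509 bases of merged exons, but its principal transcript, the one that the APPRIS annotation marks as the main isoform, has 1687. With that length, tried after seeing the data, *Cd69* was at 63.9 CPM per kb in place of 16.6 and moved up to the fourth place, after *S1pr4*. *Klf3* (11243 merged bases) was at 36.9 CPM per kb with a longest transcript of 5221 bases and passed *Foxo1*. *Klf2*, *S1pr1* and *S1pr4* have 1 annotated transcript each, so their own values could not change with the length. They held the first places under all 3 lengths because no other egress gene rose above them.

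**Figure D3:**
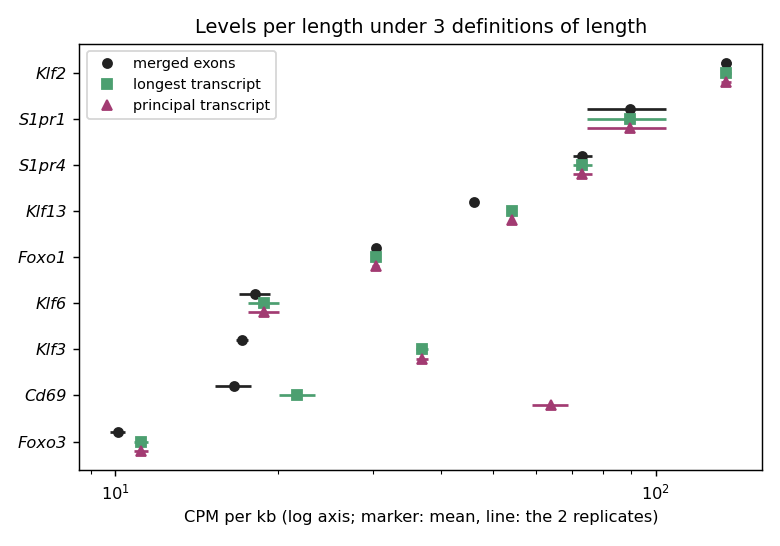
Level of the 9 egress genes in CPM per kb (log axis) with the length taken as merged exons, the longest transcript or the principal transcript, where markers are means and lines join the 2 replicates. *Cd69* moves from 16.6 to 63.9 CPM per kb with the principal transcript. *Klf2*, which has 1 annotated transcript and so the same length under each definition, stays at 135.

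Ratios within a library do not depend on its total. *S1pr1* to *S1pr4* was 1.37 in replicate 1 and 1.06 in replicate 2 (1.22 ± 0.217, SD, n = 2). *Foxo1* to *Foxo3* was 3.14 and 2.87 (3.01 ± 0.195). *Klf2* exceeded *Klf13* by 2.93 ± 0.102 times, *Klf6* by 7.49 ± 0.474 times and *Klf3* by 7.89 ± 0.540 times, and the last of these was 3.66 with the longest transcripts. The ratio of the gene for the factor that activates *S1pr1* to that for the protein that removes its product, *Klf2* to *Cd69*, was 7.74 and 8.65, and *S1pr1* to *Cd69* was 5.86 and 4.88. With the principal transcripts these means were 2.12 and 1.39, so *Klf2* and *S1pr1* exceeded *Cd69* under each length, by an amount that the length decides.

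The libraries were next compared gene by gene with a two-sided exact binomial test on the counts, which compares these libraries and not conditions. Over the 15949 genes with at least 10 counts, 16.3% differed at an adjusted p under 0.05, and 2.82% did so with the lower level in replicate 2. A call also needed a 2-fold difference, which 1.52% of all genes met and 0 of the 9 egress genes. Without the fold, 4 of the 9 passed, and all 4 were lower in replicate 2. *S1pr1* had a log2 ratio of replicate 2 to replicate 1 of -0.48 (1.40 times higher in replicate 1, exact 95% interval 1.34 to 1.46, adjusted p = 1.48e-53). *Cd69* had -0.22 (adjusted p = 0.000108 by the exact binomial test), *Klf6* had -0.19 (adjusted p = 0.00751) and *S1pr4* had -0.12 (adjusted p = 0.0168). The other 5 had log2 ratios from -0.06 for *Klf2* to 0.09 for *Foxo3*, and their adjusted p by the exact binomial test was from 0.135 to 0.905.

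Because the egress genes are well counted, a fairer background is the 5719 genes with at least 1000 counts, of which 31.2% differed and 4.53% were lower in replicate 2. Among these, 19 genes (0.332%) had a lower ratio than *S1pr1*, 108 than *Cd69*, 155 than *Klf6* and 351 than *S1pr4*. The median log2 ratio was -0.06 over the 9 egress genes and 0.08 over all genes tested. Mitochondrial and ribosomal RNA genes (393 genes) took 16% of the counts in replicate 1 and 13% in replicate 2, and the part of this difference in the ratios of other genes was not tested. Most genes called without the fold were higher in replicate 2 (2146 against 450), a split that became 812 against 876 with TMM library sizes and 992 against 739 with DESeq2 size factors. With these scalings the median over all genes was -0.00 and 0.01, the same 4 genes passed, and *Klf2* (-0.14 and -0.12) and *Foxo1* (-0.12 and -0.11) passed too, with adjusted p of 0.000282 and 0.00211 for *Klf2* and of 0.00161 and 0.00960 for *Foxo1* by the exact binomial test. *Klf13* turned from 0.01 to -0.07 and -0.05 without passing. The binomial test allows for counting error only. When edgeR's exact test was run with the coefficient of biological variation set to 0.1, which allows for more than counting error, 0.464% of all genes passed and 0 of the 9 egress genes, and 1 of the 9, *S1pr1*, had an unadjusted p under 0.05 (p = 0.0195, adjusted p = 0.708).

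**Figure D4:**
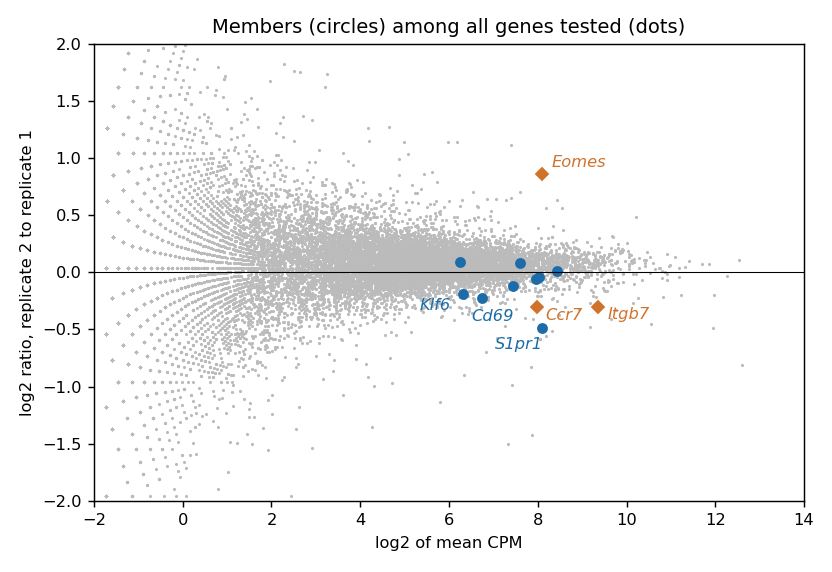
Log2 ratio of replicate 2 to replicate 1 (vertical axis) against the log2 of mean CPM for all 15949 genes tested (grey dots), with the egress genes as blue circles and *Ccr7*, *Itgb7* and *Eomes* as orange diamonds. The axis ends at 2 in either direction and leaves 192 genes out. *S1pr1*, at -0.48, lies below nearly all genes of its level.

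Among genes that FOXO1 and KLF2 are known to activate in naive T cells, *Ccr7* and *Itgb7* were, like *S1pr1*, lower in replicate 2, and genes of innate memory CD8 T cells were higher. The naive list has 5 genes and includes *Klf2* and *S1pr1* themselves. Of the 5, 3 passed the exact binomial test, all lower in replicate 2, and the median log2 ratio was -0.30. Of all genes with at least 1000 counts, 4.53% passed as lower. *Ccr7*, the receptor for lymph node chemokines, had 277 and 225 CPM (-0.30, adjusted p = 1.79e-19 by the same exact test), and *Itgb7*, an integrin chain of gut homing, had 727 and 591 CPM (-0.30, adjusted p = 2.81e-50, exact binomial). *Il7r*, the IL-7 receptor chain and a FOXO1 target, was at 361 CPM in both libraries (log2 ratio -0.00, adjusted p = 0.997, exact binomial test). With TMM library sizes *Il7r* also passed as lower in replicate 2 (-0.08, adjusted p = 0.0267 by the same exact test), and all 5 genes of the list did, against 4 with DESeq2 size factors. Of all 15949 genes tested, 876 passed as lower with TMM and 739 with DESeq2 size factors. The share among genes with at least 1000 counts was computed for the main totals only. With edgeR's exact test at the set variation, 0 of the 5 passed.

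Of the 6 innate memory genes, 5 were higher in replicate 2 by the exact binomial test, with a median log2 ratio of 0.34, beside 13.5% of all genes tested and 26.7% of those with at least 1000 counts. The count was 5 with TMM and DESeq2 scaling as well, and 1 with edgeR's exact test. Of all 15949 genes tested, 812 passed as higher with TMM, 992 with DESeq2 size factors and 42 with edgeR's exact test. *Eomes*, which encodes the T-box factor of these cells, had 196 and 355 CPM, a log2 ratio of 0.86. This was the 1 gene that passed edgeR's exact test (adjusted p = 0.0119), and *Ccl5* had an adjusted p of 0.455 in it. *Ccl5* had a ratio of 0.57, *Cxcr3* of 0.36 and *Il2rb*, the IL-2 and IL-15 receptor chain, of 0.18. *Tbx21* was at 0.14 with an adjusted p of 0.362 (exact binomial test). By counting error alone, the libraries therefore differed in opposite directions for *S1pr1*, *Ccr7* and *Itgb7* and for *Eomes*, *Ccl5* and *Cxcr3*. With 1 library on each side, and these libraries also differing in *Xist* and *Ddx3y*, this difference cannot be told apart from any other between them.

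**Figure D5:**
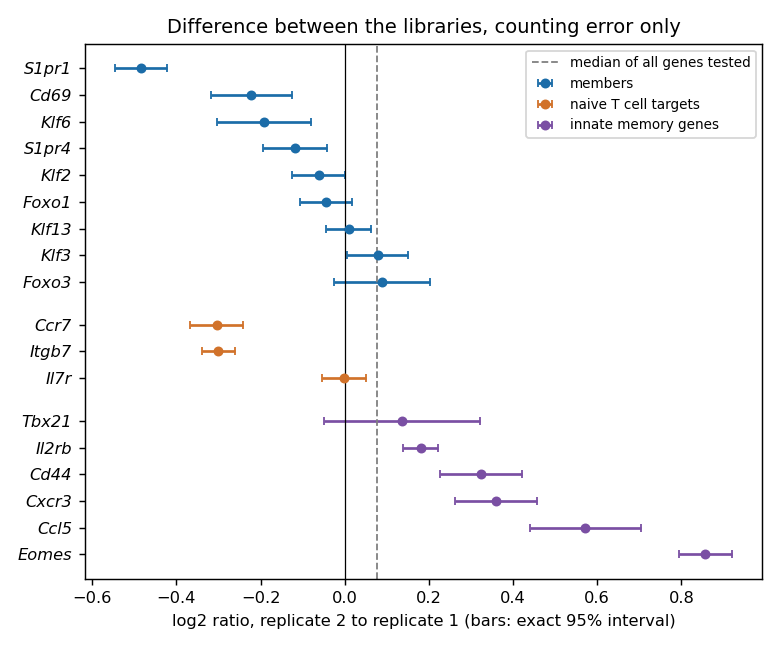
Log2 ratio of replicate 2 to replicate 1 with its exact 95% interval, covering counting error only, for the 9 egress genes (blue), 3 naive T cell genes that are no egress genes here (orange) and 6 innate memory genes (purple), where the dashed line is the median of all genes tested. The egress genes run from -0.48 for *S1pr1* to 0.09 for *Foxo3*, while the innate memory genes run from 0.14 for *Tbx21* to 0.86 for *Eomes*.

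In a list of 24 genes of S1P receptor signalling and motility, 22 were in the files and all 22 had at least 5 CPM. They include *Mst1*, which is listed in error. The highest per length were *Coro1a*, an actin regulator needed for egress, at 610 ± 11.3 CPM per kb (SD, n = 2), the GTPase gene *Rac2* at 296 ± 4.78, the exchange factor gene *Arhgef1* at 176 ± 4.60 and *Gnai2*, which encodes the G protein that S1PR1 couples to, at 155 ± 1.70. In this list 9 of 22 genes were higher in replicate 2 and 0 lower. Of all genes tested, 13.5% were higher and 2.82% lower, and of those with at least 1000 counts 26.7% and 4.53%. The split in the list depended on the scaling, with 4 higher and 7 lower under TMM and 4 of each under DESeq2 size factors. Of all 15949 genes tested, 812 were higher and 876 lower under TMM, and 992 and 739 under DESeq2 size factors. With edgeR's exact test 0 passed. In the list of 14 genes of AKT and FOXO control, which includes *Pdk1*, listed in error, all had at least 5 CPM. The shares and counts over all genes given above apply to this list too. In it 1 gene was lower in replicate 2 and 3 were higher, against 3 lower and 2 higher under TMM. Its highest genes per length were the 14-3-3 gene *Ywhaz* at 143 ± 0.553 CPM per kb, the PI3 kinase gene *Pik3cd* at 142 ± 6.48 (SD, n = 2), *Ywhab* and *Usp7*. The 1 lower gene was *Pik3cd*, by 0.09 on the log2 scale.

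Of the 14 symbols for S1P synthesis, breakdown and transport, 11 were in the files (3 of the 14 are older symbols of others) and 6 had at least 1 CPM. The ceramide synthase gene *Cers2* was highest, with 95.3 and 102 CPM, followed per length by the kinase gene *Sphk2*, with 63.4 and 67.3 CPM, the phosphatase gene *Sgpp1*, with 70.7 and 68.6 CPM, and the lyase gene *Sgpl1*, with 61.7 and 59.4 CPM. *Sphk1* had 0 and 1 count. *Sgpp2* was the only gene of the list called with the 2-fold rule, from 15 to 35 counts (adjusted p = 0.0302 by the exact binomial test), and it did not pass with TMM or DESeq2 scaling. The exporters *Spns2* and *Mfsd2b*, which release S1P from endothelial and red blood cells, had 15 and 13 and 24 and 21 counts.

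Markers of the labelled cells were checked beside these values. All 7 T cell genes were present and summed to 3701 CPM in both libraries, the highest per length being *Thy1*, *Lck*, *Cd3d* and *Cd2*. Single genes went either way, with log2 ratios of replicate 2 to replicate 1 of -0.20 for *Cd5* and -0.15 for *Cd3e* and *Cd3g*. *Lck* was at 0.16, *Thy1* at 0.09, *Cd3d* at -0.03 and *Cd2* at -0.00. General T cell genes thus differed by about as much as *S1pr4*, *Klf6* and *Cd69*. Since endothelial cells also express *S1pr1* and *Klf2*, 7 endothelial genes were examined. *Kdr* had 0 counts in both libraries, *Tek* 2 and 0, *Cdh5* 12 and 10, *Tie1* 4 and 3, *Esam* 1 in each, and only *Pecam1*, which T cells express as well, was high, with 76.9 and 67.4 CPM of the list's 78.3 and 68.5. Thymic epithelial genes summed to 123 and 106 CPM, nearly all of it *Ly75* with 119 and 102 CPM, while *Epcam* had 50 and 53 counts, *Psmb11* 9 and 11, *Krt8* 1 and 3, *Krt5* 1 in each library and *Foxn1* 1 and 0. B cell genes summed to 13.5 and 15.2 CPM, of which *Cd79b* made nearly all (196 and 227 counts), with 21 and 15 counts on *Cd79a*, 8 and 5 on *Ms4a1* and 1 and 0 on *Pax5*. The myeloid and dendritic genes summed to 17.3 and 18.0 CPM, led by *Csf1r*, *Fcgr3*, *Xcr1* and *Itgam*, and the 6 erythroid genes to 0 and 2 counts, both on *Klf1*, with *Hbb-bs*, *Hbb-bt* and *Hba-a1* at 0. NK cell genes summed to 26.2 and 37.9 CPM, and of the 3, *Ncr1* (45 and 112 counts) and *Klra8* (24 and 58) were called higher in replicate 2. *Klrb1c*, with 370 and 446 counts, was also higher (log2 ratio 0.31) and passed the exact binomial test without the fold. With edgeR's exact test *Ncr1* passed, and *Klra8* and *Klrb1c* did not. *Ncr1* and *Klra8* moved with *Eomes* and opposite to *S1pr1*, and their part in that difference was not tested.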

How the data were processed

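RNA of sorted mature thymocytes was sequenced by the authors as poly(A)-selected libraries (single-end reads of 50 bases). The deposited files hold raw read counts per gene, made by the authors with TopHat2 2.1.1 and HTSeq 0.6.1 on mm10 per the labels and submitters' processing notes. The annotation and strand setting are not given in the sources used here. Rows that name no gene (reads with no feature, 55.9% of uniquely aligned reads in either library, and ambiguous reads, 3.52% and 2.92%) were left out of totals and tests. Both samples form 1 group, from their titles.

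From these counts, CPM of the total on genes, mean ± SD over 2 replicates and Wilson 95% intervals were computed in Python 3.11.15 with scipy 1.17.1. Intervals and floors cover counting error only, since reads carry no molecular identifiers. Of 48321 symbols, 46984 matched GENCODE M21, which gave lengths and coordinates. A two-sided exact binomial test compared the libraries over genes with at least 10 counts, with Benjamini-Hochberg adjustment over all of them. It was run on simulated counts with 200 genes changed 4-fold. These counts held counting error only, so the check could not show how the test does under variation between mice. A call needed an adjusted p under 0.05 and a 2-fold difference. Alternatives were TMM factors and an exact test with fixed variation from edgeR 4.0.16, DESeq2 1.42.0 size factors, other minimum counts, totals, lengths and CPM limits, and each replicate left out. Egress genes and lists were chosen with earlier results of these data known. Named are all egress genes, the other genes of their families, the targeted genes and, in each list, the 4 highest per length and any gene called. Genes named beyond these, such as *Cd24a*, *Rag1*, *Rag2*, *Dntt*, *Ptcra*, *Il7r*, *Tbx21* and markers at or near 0, were chosen after their values were seen. The symbols *Mst1* and *Pdk1* in the lists were meant as aliases of *Stk4* and *Pdpk1* but name other genes, so they do not belong to the pathways. Protein sequences were not used here, so the planned comparison of proteins was not made. Some genes of the lists are not reported here and are left out of the lists' counts.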

Additional observations from a re-analysis of the deposited data

How the results depend on the processing

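No paired analysis was possible because the labels give a single group, with no second group to share replicate numbers. Leaving out mitochondrial and ribosomal RNA genes (393 genes) raised the mean CPM of all 9 egress genes. It was then 204 for *S1pr4*, 292 for *Klf2*, 225 for *Klf3*, 92.9 for *Klf6* and 405 for *Klf13*. For *Cd69* it was 126, for *Foxo1* 307 and for *Foxo3* 89.2. *S1pr1* rose from 273 to 319 CPM, which was within 1 SD only because its SD was 64.1 CPM. Of the 9 genes, 5 kept their place in the per-length order with the longest transcript and 4 with the principal transcript. With the longest transcripts the ratios were 6.25 for *Klf2* to *Cd69*, 4.10 for *S1pr1* to *Cd69*, 2.72 for *Foxo1* to *Foxo3*, 3.66 for *Klf2* to *Klf3* and 2.49 for *Klf2* to *Klf13*, and with the principal transcripts the first pair were 2.12 and 1.39 and the others the same. Genes differing by 2-fold numbered 242, and 55 with at least 100 counts or 60 with edgeR's exact test at a fixed coefficient of variation. Without the fold they numbered 2596, and 1688 with TMM or 74 with that edgeR test, under which the egress genes passing went from 4 to 0. They were 6 with TMM or DESeq2 scaling. The 2 libraries of 1 group allow no estimate of the variation between mice apart from these libraries.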

Other observations

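The 9 early response genes, of a kind induced when cells are stimulated or handled, summed to 391 and 379 CPM, and *Ier2*, *Junb*, *Zfp36* and *Egr1* were highest per length, with log2 ratios of replicate 2 to replicate 1 between -0.05 and -0.01. All 9 ratios were below 0, with a median of -0.05, and 1 gene, *Jun*, passed the exact binomial test (116 and 71 counts, adjusted p = 0.0175). Of all 15949 genes tested, 5512 had a ratio below 0, and 2.82% passed as lower. *Klf6* and *Cd69* are themselves known as early response genes, and whether handling moved these genes or *Klf2* was not tested.

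Among 8 genes of late mature thymocytes, 3 were lower in replicate 2 and 3 were higher. Of all genes with at least 1000 counts, 4.53% were lower and 26.7% higher. The 3 lower genes were *S1pr1*, *Ccr7* and *Itgb7*, already described in the naive list. With TMM library sizes 5 were lower and 1 higher, beside 876 lower and 812 higher of all 15949 genes tested. These 5 were the whole naive list. The lower genes here therefore repeat that list. The higher ones included *H2-Q7*, a nonclassical MHC class I gene of the Qa-2 group, with 989 and 1381 CPM (log2 ratio 0.48), a gene with near-identical neighbours whose counts may be shared. Of 10 genes of immature or semi-mature thymocytes, *Cd69* was lower and *Ccr9* higher in replicate 2 (0.27, adjusted p = 5.21e-06 by the exact binomial test), and the other 8 did not pass or had under 10 counts. In the KLF family *Klf9* had 130 and 82 counts (-0.62, adjusted p = 0.0195) and *Klf11* had 54 and 87 (0.73, adjusted p = 0.0242 by the exact binomial test), and *Klf11* did not pass with TMM library sizes (adjusted p = 0.0728). Neither passed edgeR's exact test (adjusted p = 0.857 and 0.783).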
